A study of Mus musculus with 40 samples.

Results

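The genes described here are the dynein arm, dynein assembly, nexin-dynein, radial spoke, Cfap (cilia and flagella associated protein) and intraflagellar transport (IFT) genes of single mouse germ cells, chosen by symbol (Dnah, Dnai, Dnal, Dnali1, Dnaaf, Drc, Rsph, Cfap or Ift followed by a number). Of 79 symbols in the table, 76 had a summed count of 20 or more over all libraries and were called measured, among 16174 measured genes. The cells came from testes of C57BL/6J mice 6 to 8 weeks old. There were 20 libraries labelled Metaphase I and 20 labelled Pachytene, each from 1 cell. Pachytene spermatocytes were separated by centrifugal elutriation, and the protocol, worded alike for every sample, adds 4 µM okadaic acid, a phosphatase inhibitor, for 5 h to bring cells to metaphase I. Metaphase I was thus reached in culture with an inhibitor, and the labels give neither the number of mice nor of cultures. Each group therefore counts as 1 sample, no test between groups was possible, and all differences below are descriptions of these cells.

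The axoneme is the microtubule core of cilia and of the sperm tail. Outer and inner dynein arms bend it, the nexin-dynein regulatory complex and the radial spokes control the arms, and a central pair of microtubules with its projections completes it. IFT complexes B and A are protein trains that carry cargo out along a growing cilium and back. The sperm tail is built in spermatids, after meiosis, while transcription of many of its genes is known to begin in spermatocytes.

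Libraries were divided by Acrv1, an acrosomal gene of spermatids, at 100 CPM (the count of a gene as a share of its library total, scaled to 1000000). The 8 libraries above it (4 Metaphase I and 4 Pachytene) are called spermatid-RNA libraries and the 32 below it (16 and 16) spermatocyte libraries. Summed over 14 spermatid markers, levels were 769 to 7254 CPM in the spermatid-RNA libraries and 0 to 1448 CPM in the spermatocyte libraries. That list includes Acrv1, and without it the sums overlapped, at 651 to 6752 CPM in the spermatid-RNA libraries and 0 to 1375 CPM in the spermatocyte libraries. Within the list, Tssk6 had no count in the spermatid-RNA libraries and a mean of 0.88 CPM in the spermatocyte libraries. Means of Prm1 (12.0 and 11.3 CPM) and Prm2 (19.2 and 12.0 CPM), in the same order, were within 2-fold. All other listed markers had higher means in the spermatid-RNA libraries, with Smcp the largest (1477 and 29.7 CPM). Markers of spermatocytes summed to 15022 to 23063 CPM in the spermatid-RNA libraries and 9859 to 26411 CPM in the spermatocyte libraries. Ldhc made up most of the median sums, with medians of 14434 and 18415 CPM in the same order. Medians were lower in the spermatid-RNA libraries for Sycp3 (36.6 and 145 CPM), Piwil1 (23.1 and 164 CPM) and Mlh3 (7.57 and 78.5 CPM), among others. Only Sycp1 (192 and 114 CPM), Ccna1 and Ybx3 had higher medians there. The sum therefore does not show how much spermatocyte RNA either class held. Whether a spermatid-RNA library was a spermatid or a spermatocyte with added spermatid RNA was not tested. The nearest libraries to the limit were Metaphase I replicate 16 with 117 CPM of Acrv1 and Pachytene replicate 5 with 72.7 CPM. Total counts ran from 198117 to 2325564 in the spermatid-RNA libraries and from 165048 to 2283438 in the spermatocyte libraries.

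Libraries that stood apart were 3 of the 32 spermatocyte libraries. Metaphase I replicate 18 had high dynein heavy chain levels and the lowest level of the spermatocyte gene Ldhc, 5453 CPM. Metaphase I replicate 19 carried 15236 CPM of Sertoli cell markers, against a median of 16.9 CPM over the spermatocyte libraries, with a count for 9 of the 12 markers, among them Clu at 10454 CPM and the Sertoli transcription factor Sox9 at 753 CPM; the remaining 3, Amh, Rhox5 and Gata4, were at 0 in all 32. In that library 44 of the 76 genes were over 2-fold below the median of the other 15 Metaphase I spermatocyte libraries, against 26.9% of all measured genes. Among genes with 1000 or more summed counts the shares were 62.5% of 64 and 40.6% of all 4895. Pachytene replicate 5 was the shallowest library and had the highest spermatid marker sum of its class.

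Sequence around the start site is shown for 2 genes that were higher and 2 that were lower in the spermatid-RNA libraries, so that the windows can be set beside their levels. The windows are RefSeq's, on GRCm38.p6, and run from 250 bases before to 50 bases after a start given there. That start need not be the start of the counted gene, which was at base 30624354 for Dnah8 and 44767908 for Ift46. Capitals mark every match on either strand to GTTGCC (RFX core, bound by the RFX factors of ciliary genes), CAGTTG (MYB core, bound by factors that include the pachytene regulator MYBL1) or TGACGT (CRE core, bound by factors that include the spermatid regulator CREM). The positions are Cfap58 at chr19:47937462-47937761 on the plus strand, Cfap100 at chr6:90428431-90428730 on the minus strand, Ift46 at chr9:44772759-44773058 on the plus strand and Dnah8 at chr17:30626686-30626985 on the plus strand.
Cfap58: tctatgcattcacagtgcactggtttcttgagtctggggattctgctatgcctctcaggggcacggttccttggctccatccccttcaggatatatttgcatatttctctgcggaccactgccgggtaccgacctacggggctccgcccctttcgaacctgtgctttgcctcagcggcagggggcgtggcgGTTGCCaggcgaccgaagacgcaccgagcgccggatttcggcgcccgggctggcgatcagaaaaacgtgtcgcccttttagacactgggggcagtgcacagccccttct
Cfap100: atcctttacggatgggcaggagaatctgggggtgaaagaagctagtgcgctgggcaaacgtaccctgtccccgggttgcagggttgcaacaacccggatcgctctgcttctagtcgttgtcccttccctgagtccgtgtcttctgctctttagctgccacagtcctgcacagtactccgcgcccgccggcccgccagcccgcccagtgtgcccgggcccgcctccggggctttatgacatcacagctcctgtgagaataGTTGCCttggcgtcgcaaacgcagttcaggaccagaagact
Ift46: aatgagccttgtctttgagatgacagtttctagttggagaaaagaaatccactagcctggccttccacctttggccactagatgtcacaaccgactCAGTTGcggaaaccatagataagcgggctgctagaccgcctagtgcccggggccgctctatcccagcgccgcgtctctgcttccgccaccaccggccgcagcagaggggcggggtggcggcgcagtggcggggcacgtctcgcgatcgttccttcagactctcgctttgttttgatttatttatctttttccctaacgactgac
Dnah8: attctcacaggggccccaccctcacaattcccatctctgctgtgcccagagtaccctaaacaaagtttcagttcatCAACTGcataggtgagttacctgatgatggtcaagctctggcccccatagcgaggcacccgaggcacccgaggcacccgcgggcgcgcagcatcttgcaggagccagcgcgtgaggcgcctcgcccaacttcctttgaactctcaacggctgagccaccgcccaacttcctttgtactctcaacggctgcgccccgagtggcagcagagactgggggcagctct
The Cfap58 and Cfap100 windows each hold 1 RFX core, and the Ift46 and Dnah8 windows each hold 1 MYB core.

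Windows were matched for 62 of the 76 genes, and 9 motifs were searched. A gene counted when any of its windows matched. The like background is therefore measured genes with a window, since the share of all windows counts single windows. The RFX core occurred in 22 of the 62 (35.5%), against 12.5% of all 32851 windows and 16.1% of the measured genes with a window. The MYB core occurred in 16 (25.8%), against 13.7% of all windows and 14.1% of measured genes. The CRE core was in 4 (6.45%), against 7.51% and 12.6%.
Among genes over 2-fold lower in the spermatid-RNA libraries, 6 of 9 had a window with the MYB core. Among those over 2-fold higher 1 of 10 did, and among the others 9 of 43. For the RFX core the same counts were 1 of 9, 2 of 10 and 19 of 43. These splits by direction were not made over all measured genes, so they have no background and describe these genes only. The other 6 motifs searched were an ungapped and a gapped RFX site of 10 bases, a full gapped RFX site, TGACGTCA, GGGCGG and TATAAA, in 1, 7, 1, 2, 33 and 2 of the 62 genes. Their shares were 1.61%, 11.3%, 1.61%, 3.23%, 53.2% and 3.23%. Among measured genes with a window they were 0.948%, 3.84%, 0.903%, 3.65%, 59.2% and 9.93%, in the same order. The RFX sites of 10 bases contain the RFX core and TGACGTCA contains the CRE core, so their matches overlap. The shown windows were picked after the matches were seen, and a match is only the presence of these letters.

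Most of the 76 genes were already transcribed in the spermatocyte libraries. A count was found in every spermatocyte library for 57 of the 76 (75%), against 4214 of the 16174 measured genes (26.1%). These shares were not matched for depth. Of the 76 genes, 64 had 1000 or more summed counts, against 4895 of the 16174, and abundant genes are more easily found in every library. The highest summed count belonged to Rsph1, a radial spoke head protein abundant in testis, with 121160 counts over all libraries. Its level in spermatocyte libraries ran from 1835 to 5513 CPM with a median of 4420 CPM, and its quartiles differed by 1.24-fold. Cfap36, Cfap70, Dnah7b and Dnal4 had similarly narrow quartiles, 1.20-fold to 1.23-fold apart. Far from these were Dnah9, Dnah5, Cfap47, Cfap77 and Cfap100, with a median of 0 CPM over the spermatocyte libraries.
Symbols just inside the limit of 20 counts were Dnah5 with 67 and Cfap77 with 158. Just outside were Rsph4a with 17 and Dnah11 with 12, and Dnaaf4 was listed at 0 throughout. All 12 counts of Dnah11, an outer arm heavy chain of respiratory cilia, were in Metaphase I replicate 19, the library with Sertoli markers. Rsph4a is the spoke head gene of motile cilia whose relative in sperm is Rsph6a. Rsph6a had 9962 counts.

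Set against the spermatocyte libraries, the spermatid-RNA libraries held over 2-fold more of 13 of the 76 genes, against 23.2% of all measured genes, and over 2-fold less of 11, against 26% of all measured genes. These counts are 17.1% and 14.5% of the genes, below both backgrounds, and without Metaphase I replicate 16 the lower count was 17. The remaining 52 were within 2-fold. The median log2 ratio was -0.23 over the 76 genes and -0.26 over all measured genes, and the first of these was 0.033 with median-of-ratios scaling, which moved the second by 0.19. Here and below, a log2 ratio is that of mean CPM per cell plus 1, the spermatid-RNA libraries over the spermatocyte libraries unless stated. Among genes with 1000 or more summed counts, a limit added after seeing the data, 5 and 11 of 64 were over 2-fold higher and lower, against 12.8% and 21.2% of 4895.
No gene separated the 2 classes fully. All spermatid-RNA libraries were above all spermatocyte libraries for 0 of the 76 genes, against 0.835% of measured genes, and all were below for 0, against 0.0556%. Without Metaphase I replicate 16, a choice made after seeing the values, Dnah3, Cfap58, Cfap100 and Cfap126 were above in every spermatid-RNA library, against 4.92% of measured genes.

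**Figure D1:**
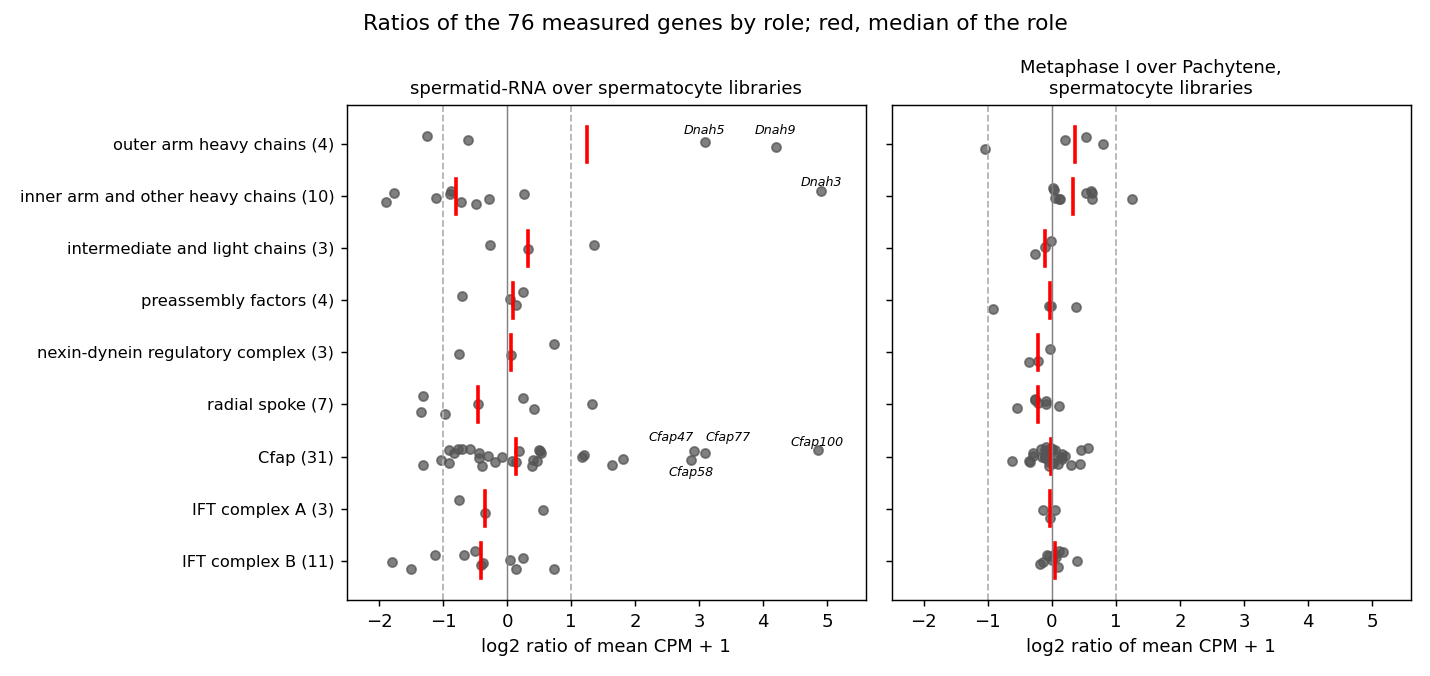
Log2 ratio of mean CPM plus 1 for each of the 76 genes by role (number of genes in brackets), for spermatid-RNA over spermatocyte libraries on the left and Metaphase I over Pachytene spermatocyte libraries on the right; dashed lines mark 2-fold and red bars the median of the role. The left panel spans -1.89 to 4.91, with 13 genes beyond 2-fold on the right and 11 on the left, while the right panel has 1 gene beyond each line.

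Outer arm heavy chains split into genes of the sperm tail and genes known from respiratory cilia. Dnah8, a heavy chain of the sperm outer arm, had 97.6 to 998 CPM (median 167) in the spermatid-RNA libraries and 214 to 1883 CPM (median 800) in the spermatocyte libraries. Of the 8 spermatid-RNA libraries, 5 were below every spermatocyte library, and the Metaphase I libraries had 151, 278, 740 and 998 CPM, the last 3 within the spermatocyte range. Its log2 ratio was -1.25. Its summed counts were 2.98-fold lower (exact 95% interval 2.82 to 3.14, counting error only, as for every interval here). Sums weight each library by its depth, while the log2 ratio weights libraries alike, so here and below the folds of sums can differ from the ratios. Pachytene replicate 7, the deepest spermatid-RNA library, weighs most in the sums of its class. It had 2325564 counts, against a median of 559761 over the spermatid-RNA libraries. Dnah17, the partner chain in sperm, had 20.9 to 296 CPM in the spermatid-RNA libraries and 54.8 to 866 CPM in the spermatocyte libraries, with a ratio of -0.60.
Dnah9, the outer arm chain of the distal part of human respiratory cilia, was found in 5 of 8 spermatid-RNA libraries at up to 135 CPM, and in 9 of 32 spermatocyte libraries at up to 7.97 CPM. Its log2 ratio of 4.19 was 3.45 without Pachytene replicate 19, the library at 135 CPM. Dnah5, the chain found along the whole length of respiratory cilia, was found in 6 of 8 spermatid-RNA libraries, with 55 counts, and in 3 of 32 spermatocyte libraries, with 12 counts (log2 ratio 3.08). Dnah5 reached the limit of 20 counts only through the spermatid-RNA libraries and so had to differ, which holds wherever it is counted among the higher genes. Both genes overlapped between classes.

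Inner arm and other heavy chains numbered 10, of which 1 was over 2-fold higher in the spermatid-RNA libraries and 3 were over 2-fold lower. These are 10% and 30%, against 23.2% and 26% of measured genes, so the lower share was near its background. Dnah3, an inner arm heavy chain, had 55.8 to 361 CPM (median 195) in the spermatid-RNA libraries and 0 to 113 CPM (median 0.978) in the spermatocyte libraries. The single spermatocyte library at 113 CPM was Metaphase I replicate 18, and the others had at most 17.7 CPM. Its log2 ratio was 4.91, or 5.84 without that library. Summed counts were 1253 and 106, a 50.04-fold difference (41.0 to 61.6).
Dnah14 had 8.05 to 376 CPM (median 61.7) in the spermatid-RNA libraries and 66.7 to 2255 CPM (median 318) in the spermatocyte libraries. The overlap lay in the Metaphase I libraries of the class, since the 4 Pachytene spermatid-RNA libraries had 8.05 to 37.6 CPM, below every spermatocyte library. The log2 ratio was -1.76, and it was -2.39 without Metaphase I replicate 16. Dnah2, a heavy chain of the double-headed inner arm, had 3.87 to 64.6 CPM (median 17.0) in the spermatid-RNA libraries and 0 to 538 CPM (median 63.2) in the spermatocyte libraries, a ratio of -1.89.
Dnah12 was the third, at -1.11, but leaving out Pachytene replicate 7, Metaphase I replicate 3 or Metaphase I replicate 18 brought it within 2-fold. Without Metaphase I replicate 18 it was -0.87. Dnah10, the partner of Dnah2 in the double-headed arm, stayed within 2-fold at 0.27, with 34.2 to 97.1 CPM in the spermatid-RNA libraries and 3.53 to 173 CPM in the spermatocyte libraries. Dnah1 (-0.88) and Dnah6 (-0.28), both inner arm chains, were within 2-fold too. Reads of Dnah7a, Dnah7b and Dnah7c, near-identical copies at -0.49, -0.72 and -0.89, may have been divided among them by the counting, so these 3 values are uncertain.

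**Figure D2:**
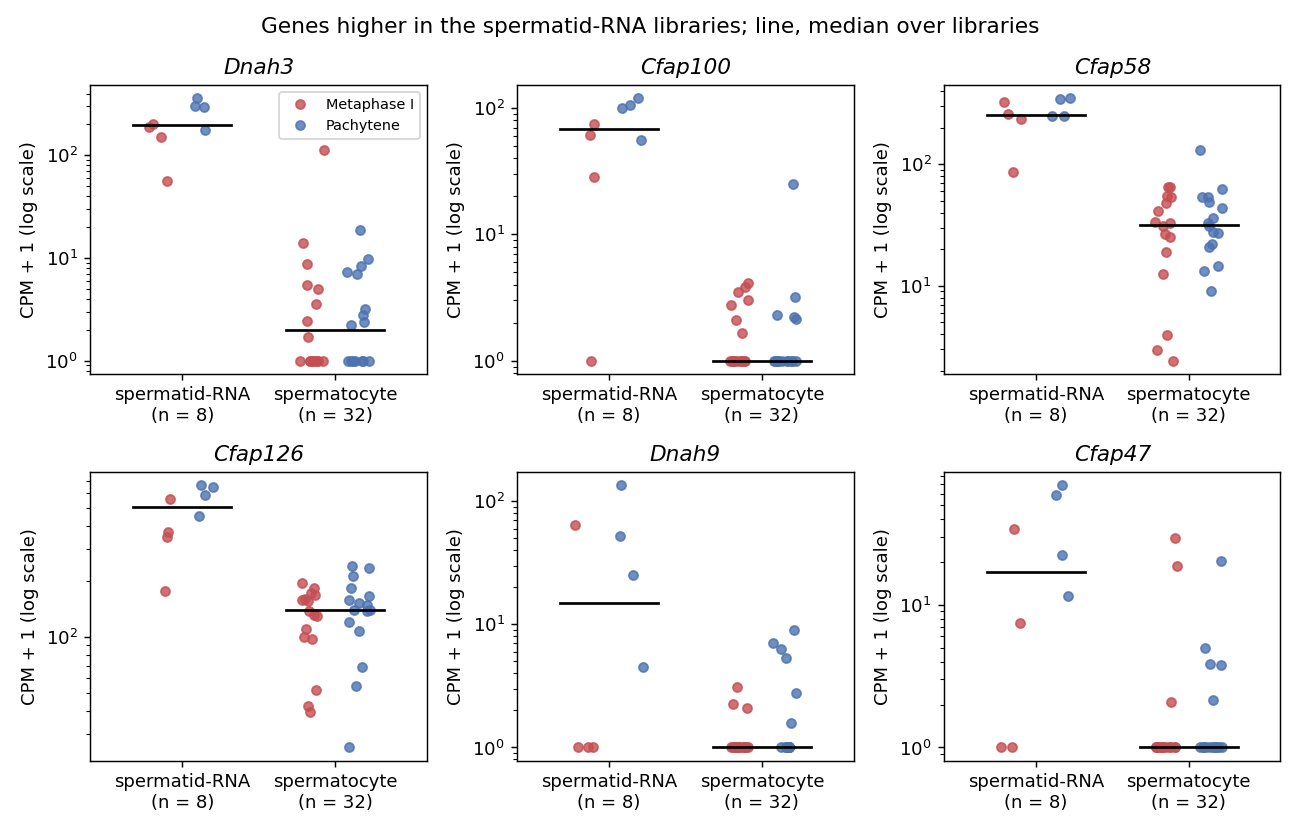
CPM plus 1 on a log scale for 6 genes higher in the spermatid-RNA libraries, each point 1 library (red, Metaphase I; blue, Pachytene) and each bar the median of 8 spermatid-RNA or 32 spermatocyte libraries. Dnah3 and Cfap58 lie at or above 55.8 and 85.1 CPM in every spermatid-RNA library, while Dnah9 is at 0 in 3 of the 8.

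Dnal1, an outer arm light chain, had 46.3 to 167 CPM (median 104) in the spermatid-RNA libraries and 6.06 to 89.2 CPM (median 38.2) in the spermatocyte libraries, a log2 ratio of 1.36. Dnal4, a further light chain, had a ratio of 0.32, and Dnali1, the inner arm light intermediate chain, -0.27.
Preassembly factors build dynein arms in the cytoplasm before transport. All 4 measured were within 2-fold, as were 8213 of the 16174 measured genes. Dnaaf1 had 976 to 1887 CPM (median 1286) in the spermatid-RNA libraries and 521 to 1769 CPM (median 1284) in the spermatocyte libraries, a ratio of 0.14. Dnaaf5 was at 0.25, Dnaaf3 at 0.05 and Dnaaf2, with only 389 counts, at -0.70. The nexin-dynein regulatory complex likewise had 0 of 3 genes beyond 2-fold. Drc1, its scaffold, had 144 to 308 CPM in the spermatid-RNA libraries and 54.5 to 313 CPM in the spermatocyte libraries (0.06), and Drc7 and Drc3 had ratios of 0.73 and -0.75.

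Radial spoke genes differed from each other in direction. Rsph1 had 987 to 4275 CPM (median 1164) in the spermatid-RNA libraries and 1835 to 5513 CPM (median 4420) in the spermatocyte libraries, a log2 ratio of -1.34. In 5 of the 8 spermatid-RNA libraries it was below every spermatocyte library, and summed counts were 3.25-fold lower (3.17 to 3.32). Rsph3a, a stalk protein, had 67.1 to 255 CPM (median 95.7) in the spermatid-RNA libraries and 56.5 to 403 CPM (median 309) in the spermatocyte libraries, a ratio of -1.32. Rsph3a and Rsph3b (-0.97) are near-identical copies, so the split of reads between them is uncertain.
Rsph6a, the spoke head gene of sperm, was within 2-fold at -0.45, and so were Rsph9, another head protein, at 0.25 and Rsph14 at 0.43. On the opposite side Rsph10b had 26.1 to 82.4 CPM (median 62.6) in the spermatid-RNA libraries and 0 to 61.8 CPM (median 19.2) in the spermatocyte libraries, a ratio of 1.32. Of the 7 spoke genes, 1 was over 2-fold higher and 2 were over 2-fold lower. These are 14.3% and 28.6%, against 23.2% and 26% of measured genes, so the lower share was near its background.

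**Figure D3:**
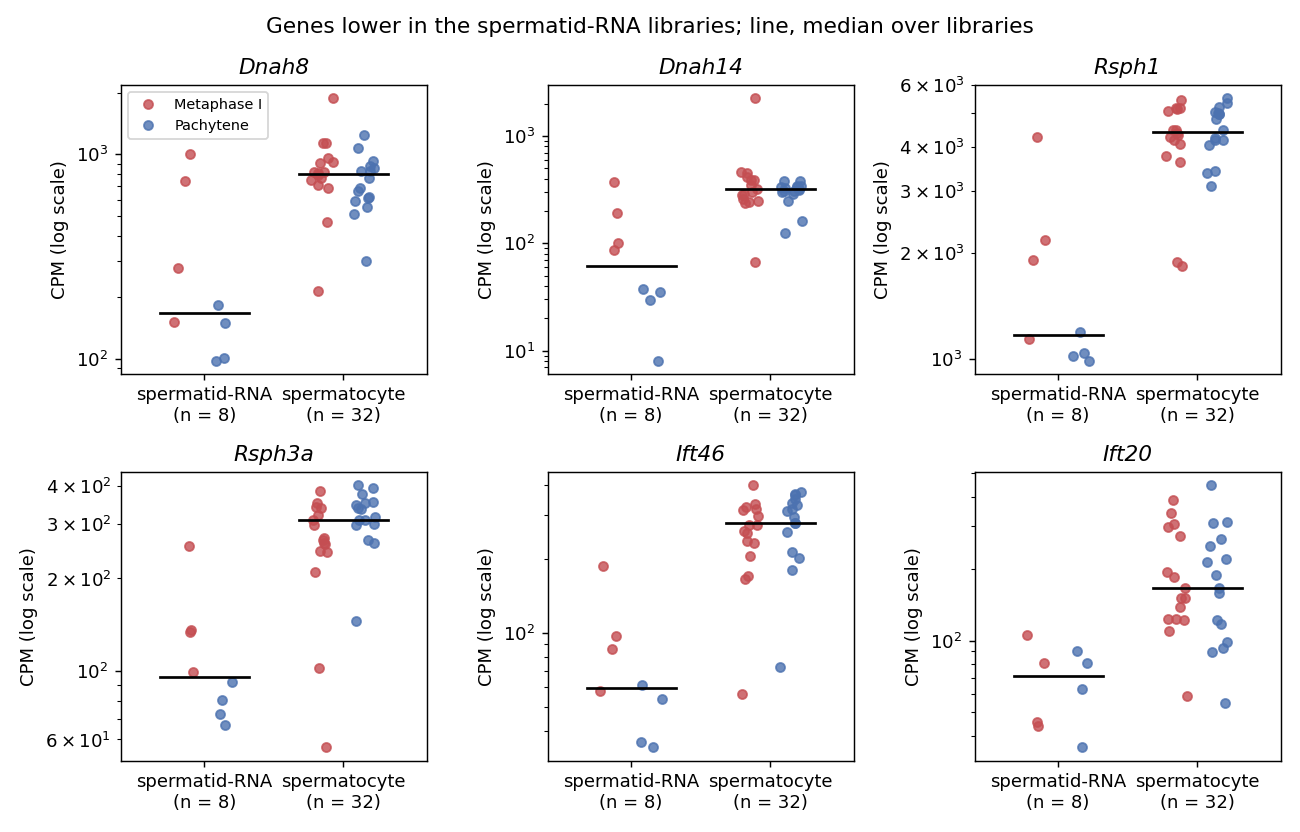
CPM on a log scale for 6 genes lower in the spermatid-RNA libraries, each point 1 library (red, Metaphase I; blue, Pachytene) and each bar the median of 8 spermatid-RNA or 32 spermatocyte libraries. Pachytene spermatid-RNA libraries lie lowest for Dnah14, at 8.05 to 37.6 CPM, and the 4 Metaphase I spermatid-RNA libraries lie at 85.8 to 376 CPM. For Rsph1 the ranges overlap, at 987 to 1193 CPM and 1135 to 4275 CPM in the same order.

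The Cfap genes, 31 in all, held 8 over 2-fold higher and 2 over 2-fold lower in the spermatid-RNA libraries (25.8% and 6.45%, against 23.2% and 26% of measured genes), with a median log2 ratio of 0.13. Cfap58, needed for assembly of the sperm tail midpiece and axoneme, had 85.1 to 349 CPM (median 254) in the spermatid-RNA libraries and 1.42 to 130 CPM (median 30.8) in the spermatocyte libraries. In 7 of the 8 spermatid-RNA libraries it was above every spermatocyte library, and the exception was Metaphase I replicate 16. Its log2 ratio was 2.88, and its summed counts were 8.62-fold higher (7.91 to 9.39).
Cfap100, a factor that in Chlamydomonas links inner arm dyneins to the doublet microtubule, had 0 to 119 CPM (median 67.4) in the spermatid-RNA libraries and 0 to 24.2 CPM (median 0) in the spermatocyte libraries. Its 400 and 23 summed counts gave a 73.6-fold difference (48.4 to 117) and the log2 ratio was 4.85. The 24.2 CPM came from Pachytene replicate 5, and Metaphase I replicate 16 had no count. Cfap126, a protein of the doublet interior also called Flattop, had 176 to 666 CPM (median 505) in the spermatid-RNA libraries and 24.2 to 240 CPM (median 139) in the spermatocyte libraries, a ratio of 1.81.
Cfap47, a central apparatus protein, was found in 6 of 8 spermatid-RNA libraries and 8 of 32 spermatocyte libraries (ratio 2.92), and Cfap77 in 7 of 8 and 12 of 32 (ratio 3.09). Cfap157, a Foxj1 target at the basal body in mouse, had a ratio of 1.64, Cfap61 had 1.21 and Cfap45, a protein of the doublet interior, 1.17.
The 2 lower genes were both central apparatus genes. Cfap74 had 15.4 to 86.1 CPM in the spermatid-RNA libraries and 6.06 to 363 CPM in the spermatocyte libraries, a ratio of -1.31. Cfap54 was at -1.04, and leaving out any 1 of Pachytene replicates 5 and 19 or Metaphase I replicates 3, 5 and 18 brought it within 2-fold (nearest to 0 at -0.86), as did TMM and median-of-ratios scaling (-0.89 and -0.91). More abundant were Cfap36 and Cfap206, both within 2-fold. Cfap36 had 1027 to 1953 CPM in the spermatid-RNA libraries and 455 to 1818 CPM in the spermatocyte libraries (0.18), and Cfap206, needed for sperm tail assembly in mouse, 892 to 1148 CPM and 212 to 992 CPM in the same order (0.46). Cfap43, a gene of sperm tail malformation, was at 0.08.

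Of the 14 IFT genes, 0 were over 2-fold higher in the spermatid-RNA libraries and 3 were over 2-fold lower, all in complex B. These are 0% and 21.4%, against 23.2% and 26% of measured genes. Every IFT gene had over 1000 summed counts, and at 1000 or more counts the background was 12.8% and 21.2%. The lower share was thus near its background. Ift46, a core subunit of complex B, had 34.2 to 188 CPM (median 59.8) in the spermatid-RNA libraries and 56.5 to 400 CPM (median 279) in the spermatocyte libraries. Its log2 ratio was -1.80, and the summed counts were 4.81-fold lower (4.32 to 5.36). Ift20, a complex B subunit that also sits at the Golgi, had 35.7 to 106 CPM (median 71.3) in the spermatid-RNA libraries and 54.5 to 448 CPM (median 166) in the spermatocyte libraries, a ratio of -1.50. Ift52, a core partner of Ift46, was at -1.12 (-0.96 with TMM scaling and -0.88 with median-of-ratios scaling, within 2-fold), with 21.5 to 90.9 CPM in the spermatid-RNA libraries and 18.2 to 194 CPM in the spermatocyte libraries.
Ift74 and Ift81, which pair in the tubulin-binding module, were at 0.04 and 0.73. Ift74 had 393 to 666 CPM in the spermatid-RNA libraries and 193 to 770 CPM in the spermatocyte libraries, and Ift81 73.4 to 257 CPM and 18.5 to 204 CPM in the same order. The small GTPases Ift22 and Ift27 were at -0.38 and -0.50, Ift88, a core subunit whose loss is known for defects of the mouse sperm tail, was at 0.14, and Ift57, Ift80 and Ift172 of the peripheral subcomplex were at 0.25, -0.67 and -0.41. In complex A, Ift43 was at 0.56, Ift122 at -0.35 and Ift140 at -0.75. Ift43 lay above every spermatocyte library in 6 of 8 spermatid-RNA libraries, with 208 to 517 CPM against 96.6 to 368 CPM.

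The 2 labels can be looked at separately, since the comparisons within them share no cells. In Metaphase I (4 spermatid-RNA and 16 spermatocyte libraries) 13 of the 76 genes were over 2-fold higher and 8 over 2-fold lower, against 21.1% and 26.4% of measured genes. In Pachytene (4 and 16) 12 were higher and 27 lower, against 25.7% and 30.3%. At 1000 or more counts the numbers were 5 and 8 of 64 in Metaphase I, against 12% and 15.1%, and 5 and 25 of 64 in Pachytene, against 14.4% and 31.8%. Over 2-fold higher under both labels were 11 genes (14.5%), against 17.1% of measured genes, and 7 were lower under both (9.21%), against 14.4%. The 11 were Cfap47, Cfap58, Cfap61, Cfap77, Cfap100, Cfap126, Cfap157, Dnah3, Dnah5, Dnah9 and Dnal1, and the 7 were Cfap54, Cfap74, Dnah2, Dnah14, Ift20, Ift46 and Ift52. None of the 76 was beyond 2-fold in opposite directions, against 2.23% of measured genes. At 1000 or more counts 4 of 64 were higher under both labels and 7 were lower, against 11.1% and 12.3% of 4895. None of the 64 was opposite, against 0.204%, so the absence of opposite genes was near its background.
The Pachytene spermatid-RNA libraries lay farther from their spermatocyte libraries. All 4 were above all 16 for 8 genes, against 10.8% of measured genes, and below for 7, against 3.1%. The 8 were Cfap45, Cfap58, Cfap77, Cfap100, Cfap126, Cfap157, Dnah3 and Dnah5, and the 7 were Cfap97, Dnah8, Dnah14, Ift46, Ift140, Rsph1 and Rsph3a. At 1000 or more counts 4 of 64 genes were above and 7 below, against 593 and 468 of 4895, so the lower count was near its background. Rsph1 had 987, 1016, 1041 and 1193 CPM in the 4 Pachytene spermatid-RNA libraries, against 3102 to 5513 CPM in Pachytene spermatocyte libraries. In the 4 Metaphase I spermatid-RNA libraries it had 1135, 1908, 2171 and 4275 CPM, against 1835 to 5452 CPM in Metaphase I spermatocyte libraries. Dnah8 likewise had 97.6, 101, 150 and 183 CPM in Pachytene spermatid-RNA libraries and 151, 278, 740 and 998 CPM in Metaphase I spermatid-RNA libraries. Within Metaphase I, Cfap58 and Drc7 were above in all 4 libraries, against 1.67% of measured genes, and 0 of the 76 were below in all 4, against 0.309%. At 1000 or more counts these were 2 and 0 of 64, against 155 and 41 of 4895.

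Metaphase I was next set against Pachytene among spermatocyte libraries alone, the comparison nearest to the study's stated aim of profiling the 2 stages. The 16 Metaphase I libraries held over 2-fold more of 1 of the 76 genes, against 10.3% of measured genes, and over 2-fold less of 1, against 4.09%. The median log2 ratio of Metaphase I over Pachytene was -0.00 over the 76 genes and 0.03 over all measured genes. At 1000 or more counts 1 of 64 was higher and 0 were lower, against 0.797% and 2.49%. The gene that was higher was Dnah3 (1.25), with 0 to 113 CPM in Metaphase I and 0 to 17.7 CPM in Pachytene, and without Metaphase I replicate 18 its ratio was -0.39. The gene that was lower was Dnah9 (-1.04), with 0 to 2.07 CPM in Metaphase I and 0 to 7.97 CPM in Pachytene, and leaving out any 1 of Pachytene replicates 1, 5, 6 and 12 brought it within 2-fold (-0.79 at the nearest to 0).
Abundant genes had close levels under both labels. Rsph1 had a median of 4356 CPM in Metaphase I and 4636 CPM in Pachytene (-0.09), Dnaaf1 1430 CPM and 1251 CPM in the same order (-0.01), and Ift74 503 CPM and 537 CPM (-0.07). Nearest to 0 besides Dnaaf1 were Cfap298, Cfap69 and Cfap221. The lowest ratios after Dnah9 belonged to Dnaaf2 (-0.92), Cfap100 (-0.62), Rsph10b (-0.54), Cfap300 (-0.36) and Drc7 (-0.36). None of the 76 genes, and 0% of measured genes, had one label's libraries all above or all below the other's.

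By means, dynein heavy chains were on the Metaphase I side in 13 of 14 genes, against 8531 of the 16174 measured genes. Their median log2 ratio was 0.37 by means but 0 by medians over libraries, and 1 library lay far above the rest. Metaphase I replicate 18 was the highest of the 32 spermatocyte libraries for 10 of the 14 heavy chains. It had 2255 CPM of Dnah14, 1312 CPM of Dnah12, 866 CPM of Dnah17 and 538 CPM of Dnah2. Over 2-fold above the median of the other 15 Metaphase I spermatocyte libraries were 10 of 14 heavy chains, against 26.4% of measured genes.
Medians over libraries varied by gene. Dnah10 had a median of 65.2 CPM in Metaphase I and 44.5 CPM in Pachytene. Dnah14 had a median of 313 CPM in Metaphase I and 318 CPM in Pachytene, Dnah2 62.7 CPM and 63.5 CPM, and Dnah12 225 CPM and 187 CPM, in the same order. By means, the ratios were 0.53 for Dnah14 and Dnah17, 0.63 for Dnah2 and Dnah12, 0.61 for Dnah10 and 0.56 for Cfap44, which also peaked in Metaphase I replicate 18.
In the same library all 7 radial spoke genes were over 2-fold below the median of the other 15, and all 3 nexin-dynein genes were as well. The share was 24.1% of measured genes and 40.8% of genes with 1000 or more summed counts. Its Rsph1 level was 1883 CPM and its Rsph3a level 56.5 CPM. The part of this library's low Ldhc level in these values was not tested.

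**Figure D4:**
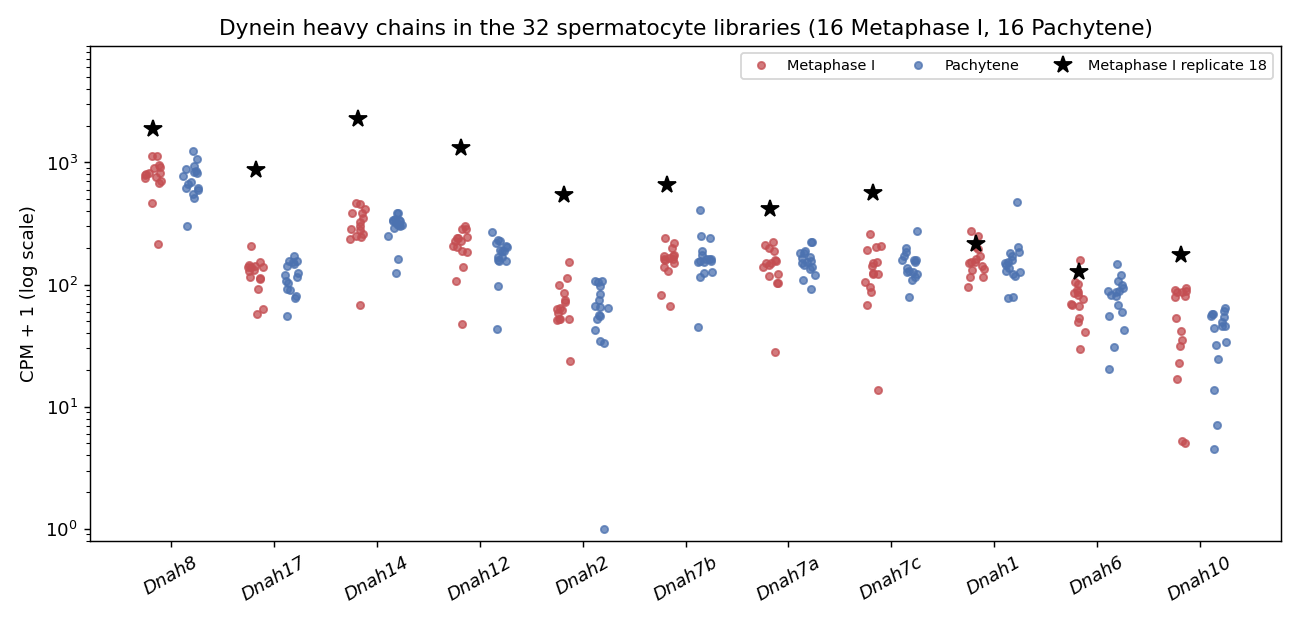
CPM plus 1 on a log scale for 11 dynein heavy chains in the 32 spermatocyte libraries, Metaphase I on the left of each pair (red) and Pachytene on the right (blue), with Metaphase I replicate 18 as a star. The star stands at 2255 CPM for Dnah14 and 1312 CPM for Dnah12, above all other libraries.

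With all 40 libraries, 20 Metaphase I against 20 Pachytene, 0 of the 76 genes were over 2-fold higher, against 8.24% of measured genes, and 2 were over 2-fold lower, against 7.86%. The 2 were Dnah9 (-1.56) and Cfap100 (-1.12), both genes carried by the spermatid-RNA libraries that each label contains. At 1000 or more counts 0 of 64 were higher and 0 lower, against 0.429% and 3.7%. Cfap100 had 0 to 74.3 CPM in Metaphase I and 0 to 119 CPM in Pachytene, and Dnah9 0 to 63.5 CPM and 0 to 135 CPM in the same order. Without Pachytene replicate 19 Dnah9 was at -0.57, without Metaphase I replicate 3 it was at -3.40, and Cfap100 came within 2-fold without any 1 of Pachytene replicates 2, 3, 7 and 19 (-0.72 at the nearest to 0) and was at -1.75 without Metaphase I replicate 3.
Next lowest were Cfap47 (-0.97), Dnaaf2 (-0.71), Dnah3 (-0.66) and Cfap77 (-0.50). Highest were Dnah2 (0.72), Dnah12 (0.71), Dnah17 (0.67), Dnah14 (0.65), Dnah10 (0.58) and Dnaaf5 (0.55), while Drc1, Cfap69, Cfap57 and Cfap206 were nearest to 0. This comparison shares its libraries with both earlier ones.

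Aurka, the gene of a kinase of meiotic spindle assembly, varied widely within both labels, and genes chosen after their values were seen show how the axoneme genes lay along it. Aurka ran from 136 to 862 CPM over the 32 libraries. Spearman correlations with Aurka, as descriptions over 32 libraries that also differ in depth, were 0.79 for Dnaaf1, 0.76 for Drc1 and 0.71 for Cfap97. They were -0.66 for Ift20 and -0.73 for Ift88, and Cfap410, a centrosome and cilium base protein, was at -0.61. Between these, Dnah14 was at 0.04 and Ift74 at -0.29. The members with 1000 or more counts had a 5th to 95th percentile range of -0.60 to 0.71, close to the -0.67 to 0.77 over all 4895 genes at that depth.

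**Figure D5:**
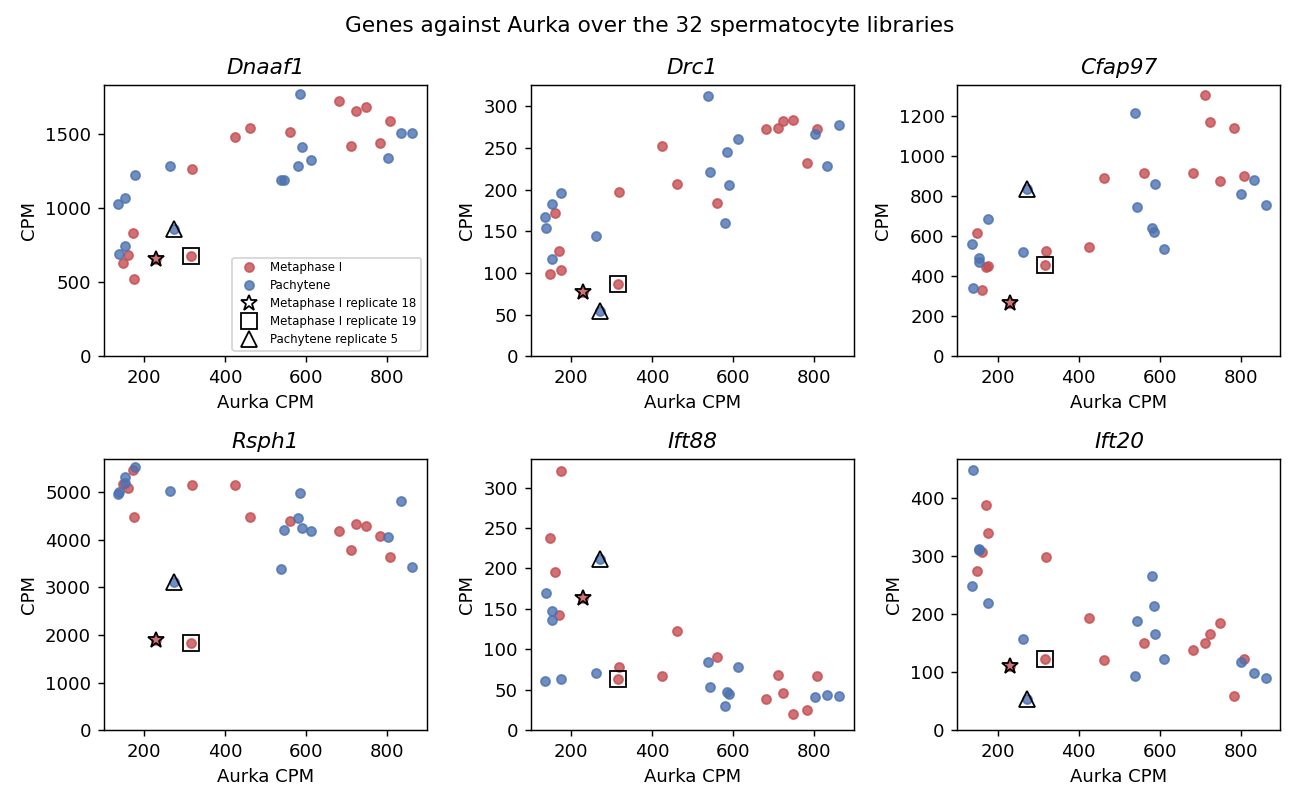
CPM of 6 genes against Aurka CPM in the 32 spermatocyte libraries (red, Metaphase I; blue, Pachytene), with the 3 libraries that stood apart outlined. Dnaaf1, Drc1 and Cfap97 are higher where Aurka is high, and Ift88 and Ift20 are lower. Aurka spans 149 to 808 CPM in Metaphase I and 136 to 862 CPM in Pachytene.

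Other genes of the axoneme and of cilium formation, outside the symbol families, were put through the same comparison. Of 86 measured, 17 were over 2-fold higher in the spermatid-RNA libraries and 10 over 2-fold lower (19.8% and 11.6%). Over all measured genes the shares were 23.2% and 26%, so both shares of the 86 were below their background. Their median log2 ratio was 0.18, against -0.26 over all measured genes. The largest ratios belonged to Spag6, a central apparatus protein (7.10), Dynll2, a dynein light chain (5.62), Efhc2, a protein of the doublet interior (5.10), Rfx1, a factor that binds the RFX site (4.97), Foxj1, the regulator of motile cilium genes (4.32), and Kif17, a kinesin motor (4.12). Spag6 had 0 to 789 CPM (median 545) in the spermatid-RNA libraries and 0 to 10.6 CPM (median 1.55) in the spermatocyte libraries. Foxj1 had 0 to 52.3 CPM (median 28.4) in the spermatid-RNA libraries and 0 to 4.34 CPM (median 0) in the spermatocyte libraries. Means in the spermatocyte libraries were only 0.414 CPM for Foxj1, 0.0742 CPM for Efhc2 and 0.0826 CPM for Tctex1d1, also among the 17. With 195, 253 and 32 summed counts, these genes reached the limit of 20 counts largely through the spermatid-RNA libraries. They therefore had to be higher there.

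Counting limits touch some of these values. Exons of 32 of the 76 genes overlap another gene, and the sources used here do not give whether counting used strand. Dnah3 overlaps Lyrm1, whose own log2 ratio was -0.53 beside 4.91 for Dnah3, and Dnal1 (1.36) overlaps Pnma1 (-0.55), so in these pairs the genes differed in direction. Dnah8 (-1.25) overlaps 1700097N02Rik (-1.33) and Cfap61 (1.21) overlaps Crnkl1 (0.81), where both members of the pair had the same direction and shared reads cannot be told apart.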

How the data were processed

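Single cells from mouse testis were profiled by a modified STRT-seq protocol with oligo(dT) priming and enrichment of 3' ends, per the labels' protocols. The authors deposited raw counts for each gene in 40 libraries, 20 Metaphase I and 20 Pachytene, with coordinates on GRCm38. UMI-tools, STAR and featureCounts are named without versions, per the submitters' processing notes; the sources used here do not give the strand setting or filters on cells. All 40 count columns were used, and 0 rows were blank.

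Counts were divided by the library total to give CPM. Genes with 20 or more summed counts were called measured. Log2 ratios compared mean CPM per cell plus 1, and over 2-fold was read as a log2 ratio beyond 1 in size. The Acrv1 limit of 100 CPM gave the spermatid-RNA and spermatocyte classes, which rest on a measured transcript. Cells are not replicates and the labels name no animal, so nothing was tested. Intervals are exact, 95% (Poisson, conditional binomial for folds of sums, Clopper-Pearson for shares), and cover counting error only. The ratio step was checked on simulated counts. No 2 libraries were duplicates: over 780 pairs and 11047 genes the lowest chi-square per degree of freedom was 2.69. Named genes were the 2 with most counts per role, per comparison the 6 highest, 6 lowest and up to 4 nearest 0 with 100 or more counts, genes whose classes did not overlap, those beside the limit of 20, all Ift genes and up to 6 others; a few more were named after their values were seen. The genes, lists and classes were chosen with earlier results of these data known. Alternatives were TMM and median-of-ratios scaling (edgeR 4.0.16 in R 4.3.3), pseudocounts, summed counts, medians, thinning, other limits and libraries left out. Python 3.11.15, numpy 2.4.6, pandas 2.3.3, scipy 1.17.1 and matplotlib 3.10.9 were used.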

Additional observations from a re-analysis of the deposited data

How the results depend on the processing

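No paired analysis was possible because the results come from no test and the replicate numbers only name cells. Depth limits the rare genes: Dnah5, Dnah9, Cfap47 and Cfap77 rest on 67 to 296 counts. Scaling by TMM moved the all-gene median log2 ratio of spermatid-RNA over spermatocyte libraries by 0.16 and median-of-ratios scaling by 0.19; the median of the 76 genes then became -0.023 and 0.033, that of the other cilium genes 0.35 and 0.40, and that of Metaphase I over Pachytene in all libraries -0.049 and -0.028. A median was called moved when it left the range given by leaving out 1 library.

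For spermatid-RNA over spermatocyte libraries, 13 genes were higher in every setting that left out 1 library, and 9 to 17 were lower (median -0.31 to -0.12; other cilium genes 16 to 18 higher and 8 to 11 lower, median 0.04 to 0.29). The count above in every library ran from 0 to 4, and was 1 after thinning, 1 without Metaphase I replicate 18 and 1 without Metaphase I replicates 18 and 19 and Pachytene replicate 5. An Acrv1 limit of 200 CPM gave 17 lower, 4 above and a median of 0.29 for the other cilium genes; a limit of 50 CPM gave a median of -0.10. Classes by an X-linked share over 0.3%, which put Metaphase I replicate 19 (Sertoli markers) in the spermatid-RNA class and left Metaphase I replicate 16 out, gave 19 lower and medians of -0.33 and, for Metaphase I over Pachytene spermatocytes, 0.060. Added after seeing the data: without Metaphase I replicate 16, 17 lower and 4 above; without it and Pachytene replicate 5, 18 and 4; a minimum of 1000 counts, 5 higher with a median of -0.32 and 10 other cilium genes higher; within Metaphase I, a median of 0.075, 2 above and 6 other genes lower; within Pachytene, a median of -0.40, 27 lower, 8 above, 7 below, and 16 other genes lower with a median of 0.018.

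For Metaphase I over Pachytene spermatocyte libraries, Dnah3 turned to -0.77 by medians over cells, -0.45 after thinning, -0.39 without Metaphase I replicate 18 and -0.30 without that library, Metaphase I replicate 19 and Pachytene replicate 5, and was 1.32 without Metaphase I replicate 19. Leaving out 1 library gave 0 to 2 higher and 0 to 2 lower genes. The count higher was 0 by medians, after thinning, with a pseudocount of 10 CPM and without the 3 libraries that stood apart, and 2 with a minimum of 1 count. The count lower was 0 by medians, by summed counts, with a pseudocount of 10 CPM, with an Acrv1 limit of 50 CPM and at 1000 counts, and 2 without Metaphase I replicate 18. In all libraries Cfap100 turned to 0.42 by medians, and the count lower was 4 after thinning, 0 with a pseudocount of 10 CPM and at 1000 counts, 1 without the 3 libraries, and 0 to 3 when 1 library was left out (higher, 0 to 1). For Dnah3 and Cfap100 the cause was not tested beyond the libraries named. Of 454 values of single genes under these settings, 286 stayed within the main value's spread, 163 moved and 5 reversed.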
